A study of Homo sapiens with 15 samples.

Results

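The libraries described here are the 3 made from HT115 cells in which doxycycline induced GFP, out of 15 libraries in the series. HT115 is an established human cell line that the labels call colorectal cancer cells. They were chosen by their labels alone, and the count table holds 1 column for each. All 15 libraries come from HT115 cells given 0.5 µg/ml doxycycline for 24 h. The other 12 libraries carry an induced wild-type SOX9 (SOX9_WT, 3 libraries) or SOX9 M228, M303 or M379 (3 each), and serve below only as a yardstick for agreement and for reads that GFP libraries lack. What follows is therefore the state of doxycycline-treated, GFP-making cells. No library of untreated cells was used here, and the GFP transgene itself was not analysed here. The labels do not say whether the line is 1 clone, or whether the 3 libraries came from separate cultures. The protocol text speaks of duplicates, while the labels give 3 libraries per group. Technical spread and spread between cultures thus cannot be told apart here, and neither was tested. RNA was selected for poly(A) tails, so transcripts without them are under-counted.

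The colonic epithelium is renewed from crypt stem cells, which are kept by WNT signals and carry LGR5, a receptor for R-spondins. Their descendants become absorptive enterocytes or secretory goblet, enteroendocrine and tuft cells, and Paneth cells in the small intestine. CDX2 and the HNF factors hold intestinal identity throughout, KRT20 marks differentiated surface cells, and SOX9 is a crypt transcription factor. Colorectal cancer cells often keep parts of several of these programmes at once.

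Levels are given as TPM (a transcript unit that corrects for gene length and library size) in replicates 1, 2 and 3, or as mean ± SD over the 3. A gene counts as detected at 1 TPM or more in every GFP library. The libraries held 3054755, 12657176 and 16699998 counted reads in replicates 1, 2 and 3. A gene with no read could still stand at up to 0.982, 0.237 or 0.180 CPM (reads scaled to library size), the level of 3 reads in each library, which covers counting error only. Replicates 1 and 2 each stood outside the other 12 libraries of the series in some measures. Replicate 1 was the shallowest of the 15, against 7291596 to 31704249 reads in the other 12. Among the GFP libraries it had the highest TPM in 246 of the 382 list genes detected below, and replicate 2 the lowest in 215. No share over all detected genes stands beside these counts. In scaled CPM, over the 9759 genes called in the chi-square test below, replicate 1 was the highest in 3116 and replicate 2 the lowest in 4576. Replicate 2 read long genes lower and short genes higher, and 7.21% of its reads lay in the 86 ribosomal protein genes, against 4.69% and 4.02% in replicates 1 and 3 and 3.71% to 4.91% in the other 12 libraries. Mitochondrial genes took 4.62%, 9.05% and 9.88% of the reads in GFP replicates 1, 2 and 3, against 5.85% to 9.94% in the other 12 libraries, and 17.7%, 26.1% and 32.4% of the TPM, which lowers the TPM of all other genes by unequal amounts. With mitochondrial genes left out of the denominator, the mean level of 100 of 287 named genes moved by more than the spread between libraries. Genes said below to be even or to vary little are so in TPM only, which depends on this denominator. The part of the ribosomal protein reads in any level below was not tested, so values of each library, or counts without replicate 2, stand beside the results. TPM also depends on the length used. With the median length of a gene's GENCODE basic transcripts in place of its exon union, 53 of the 382 list genes detected below had a mean over 1.5 times higher and 116 over 1.5 times lower.

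Of 60671 genes in the table, 13672 were detected (22.5%), or 14602 without replicate 2. Among 19903 protein-coding genes 11011 were detected (55.3%), with a median level of 3.92 TPM over all protein-coding genes. A mean of 10 TPM or more was reached by 8043 of them, 100 TPM by 1423 and 1000 TPM by 75. The lists below hold 814 genes in 35 groups. Of these, 382 were detected (46.9%), 398 without replicate 2, and 169 had no read in any GFP library. Counts of detected members below stand beside this 46.9% and the 55.3% of protein-coding genes. No list was tested against these shares.

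The 4 markers given for these cells were all present. CDX2, the homeobox factor of intestinal identity (ENSG00000165556, chromosome 13, 27960918 to 27969315, minus strand), stood at 420.0, 288 and 196 TPM. With the basic transcript length CDX2 averaged 141 TPM. KRT20, the keratin of differentiated surface epithelium (ENSG00000171431, chromosome 17, 40875889 to 40885242, minus strand), stood at 1214, 837 and 1119.8 TPM. The crypt factor SOX9 (ENSG00000125398, chromosome 17, 72121020 to 72126416, plus strand) stood at 96.6, 66.1 and 122 TPM, and the stem cell receptor LGR5 (ENSG00000139292, chromosome 12, 71439798 to 71586310, plus strand) at 40.1, 12.03 and 42.1 TPM. KRT20 was highest of the 4 in every library and LGR5 lowest, so a differentiation keratin and a stem cell receptor were read in the same bulk culture. LGR5 was lowest in replicate 2, where it had 286 reads, and averaged 41.1 TPM without that library. In bulk RNA a small number of cells with much of a transcript and many cells with little of it cannot be told apart.

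The stretches of DNA just before 2 of these genes differ in a feature taken up again with the genes that had no read. Below are the 250 bases before the RefSeq start (GRCh38.p14) of CDX2 at chr13:27969316-27969565 (minus strand) and KRT20 at chr17:40885243-40885492 (minus strand), of the expressed chemokine gene PPBP at chr4:73988191-73988440 (minus strand), and of the unread genes OLFM4 at chr13:53028563-53028812 (plus strand) and WIF1 at chr12:65121306-65121555 (minus strand). Each is written 5′ to 3′ with CG dinucleotides and the motif TATAAA in capitals. The last 3 were chosen after their values were seen, as a pair of low-CG genes with opposite levels and a CG-rich gene without reads.
CDX2: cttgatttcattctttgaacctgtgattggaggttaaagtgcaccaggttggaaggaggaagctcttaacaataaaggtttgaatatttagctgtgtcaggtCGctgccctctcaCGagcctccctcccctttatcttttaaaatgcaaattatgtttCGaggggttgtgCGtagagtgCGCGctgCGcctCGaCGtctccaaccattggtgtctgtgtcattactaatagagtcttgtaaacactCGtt
KRT20: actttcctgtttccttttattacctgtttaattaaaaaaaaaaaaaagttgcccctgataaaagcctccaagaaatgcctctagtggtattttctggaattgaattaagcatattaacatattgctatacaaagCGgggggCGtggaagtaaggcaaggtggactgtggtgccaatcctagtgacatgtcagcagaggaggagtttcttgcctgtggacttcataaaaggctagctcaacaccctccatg
PPBP: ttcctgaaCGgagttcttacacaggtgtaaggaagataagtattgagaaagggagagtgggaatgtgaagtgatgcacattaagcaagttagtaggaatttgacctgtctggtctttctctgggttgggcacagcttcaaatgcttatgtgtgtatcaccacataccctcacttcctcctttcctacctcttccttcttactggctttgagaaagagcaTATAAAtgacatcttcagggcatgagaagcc
OLFM4: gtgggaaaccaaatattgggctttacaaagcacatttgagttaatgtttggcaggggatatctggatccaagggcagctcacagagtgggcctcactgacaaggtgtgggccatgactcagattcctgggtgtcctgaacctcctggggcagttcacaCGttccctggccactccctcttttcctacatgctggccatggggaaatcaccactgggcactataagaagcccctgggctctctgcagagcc
WIF1: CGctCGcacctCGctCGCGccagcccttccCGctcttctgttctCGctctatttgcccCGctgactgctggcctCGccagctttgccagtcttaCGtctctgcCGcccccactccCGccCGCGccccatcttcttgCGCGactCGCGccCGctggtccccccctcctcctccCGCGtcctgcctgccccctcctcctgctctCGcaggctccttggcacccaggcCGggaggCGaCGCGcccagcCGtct
The windows hold 10 CG dinucleotides in CDX2, 2 in KRT20, 1 in PPBP, 1 in OLFM4 and 27 in WIF1. TATAAA lies in the PPBP window, its first base 31 bases before the start, and these letters are on neither strand of the other 4 windows. KRT20, PPBP and OLFM4 thus share a CG-poor window, and the first 2 were expressed while OLFM4 was not read.

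**Figure D1:**
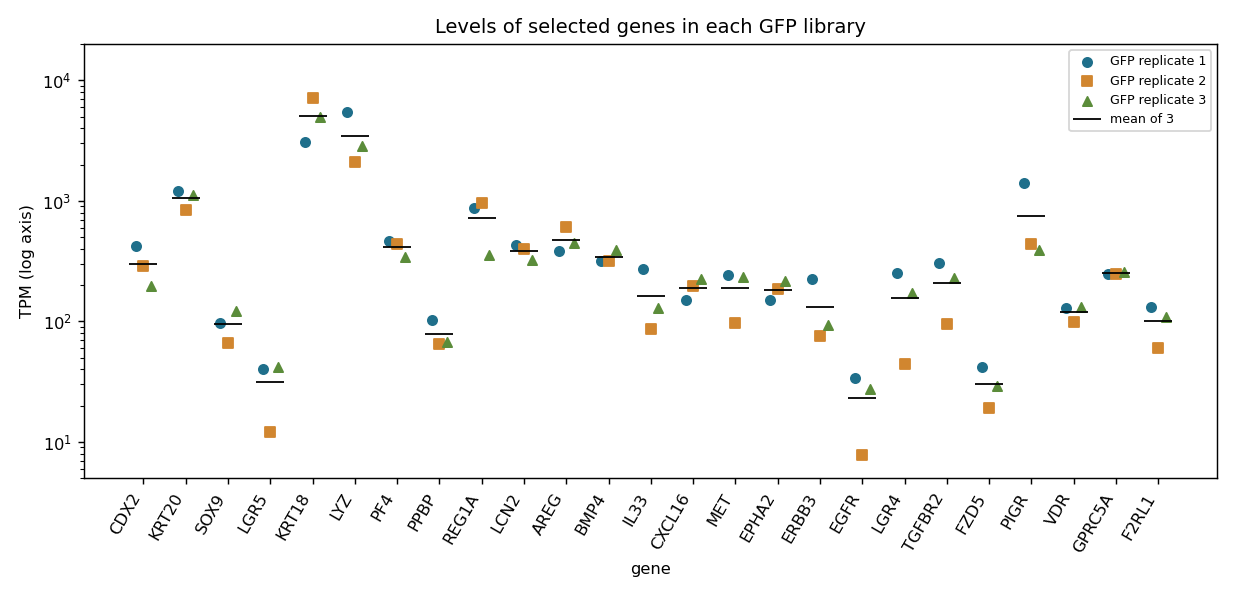
TPM (log axis) of 25 genes in GFP replicate 1 (circles), 2 (squares) and 3 (triangles), with the mean of the 3 as a line. The genes were picked after their values were seen to show markers, secreted products and receptors. GPRC5A, BMP4 and VDR sit close together in the 3 libraries, while replicate 2 is the lowest for LGR5, LGR4, EGFR and TGFBR2.

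The 20 nuclear protein-coding genes of highest mean TPM included actins, keratins, ribosomal protein genes and chaperones beside ferritin and lysozyme. TMSB10, an actin-binding peptide, stood at 7314, 11287 and 5680.4 TPM and the ferritin light chain FTL at 6192, 9538 and 4920.2 TPM. KRT18 and KRT8, the keratin pair of simple epithelia, ranked with the actins ACTB (5908 ± 1398 TPM) and ACTG1 (2997 ± 617). KRT18 reached 3102, 7183 and 4974 TPM and KRT8 2755, 4741 and 4029 TPM. With the basic transcript lengths TMSB10 averaged 4091 TPM and stood below ACTB (7872) and KRT8 (7705). Short genes such as TMSB10, FTL and RPS12 were highest in replicate 2. The 20 highest also held the ribosomal protein genes RPS12, RPL19 and RPS2, the elongation factor EEF2, the ATP synthase subunit ATP5F1B, the glycolytic enzyme GAPDH and the chaperones HSP90AB1, HSP90AA1 and HSPA8. HSP90AB1 varied little, at 3616, 3787 and 3765 TPM, as did HSPA8 at 2458, 2403 and 2637 TPM. The redox protein TXN (2482 ± 598), the calcium-binding S100A6 (2872 ± 844), the tetraspanin TSPAN8 (2287 ± 106) and lysozyme, LYZ, were also among the 20. LYZ stood at 5483, 2100.4 and 2854 TPM, and 34.7% of its exon bases overlap another gene, so its count is uncertain. Actin, GAPDH and ribosomal protein genes have many near-identical copies, which makes their counts uncertain as well.

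Intestinal transcription factors were expressed almost as a whole. Of 27 listed, 24 were detected (25 without replicate 2), with a median of 26.6 TPM against 3.92 TPM over all protein-coding genes. By mean TPM, the highest after CDX2 were the ETS factor EHF (295, 111 and 247 TPM) and CDX1 (202, 184 and 103 TPM), which is related to CDX2. The crypt factor KLF5 (217, 61.3 and 175 TPM) followed. EHF stood above CDX2 in replicate 3. With the basic transcript lengths EHF averaged 530 TPM and CDX2 141, so this order depends on the length used. SOX9 was the fifth. The 1 listed factor without a read in any GFP library was GATA4, which marks the proximal intestine and had 2 reads in the other 12 libraries, while its relative GATA6 stood at 45.001 ± 13.6 TPM. GATA6 and HNF4A (46.4 ± 14.99 TPM with the full exon length, 115 with the median length of its GENCODE basic transcripts) were named after their values were seen.

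Epithelial structure genes had the highest median of the 35 lists, with 27 of 28 detected and a median of 346 TPM. Besides KRT18, KRT8 and TSPAN8, the highest were the adhesion molecule EPCAM (1575, 1175 and 1134 TPM) and the keratin KRT19 (962, 1588 and 1130.3 TPM). The list summed to 18958, 23456 and 19947 TPM in replicates 1, 2 and 3.

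**Figure D2:**
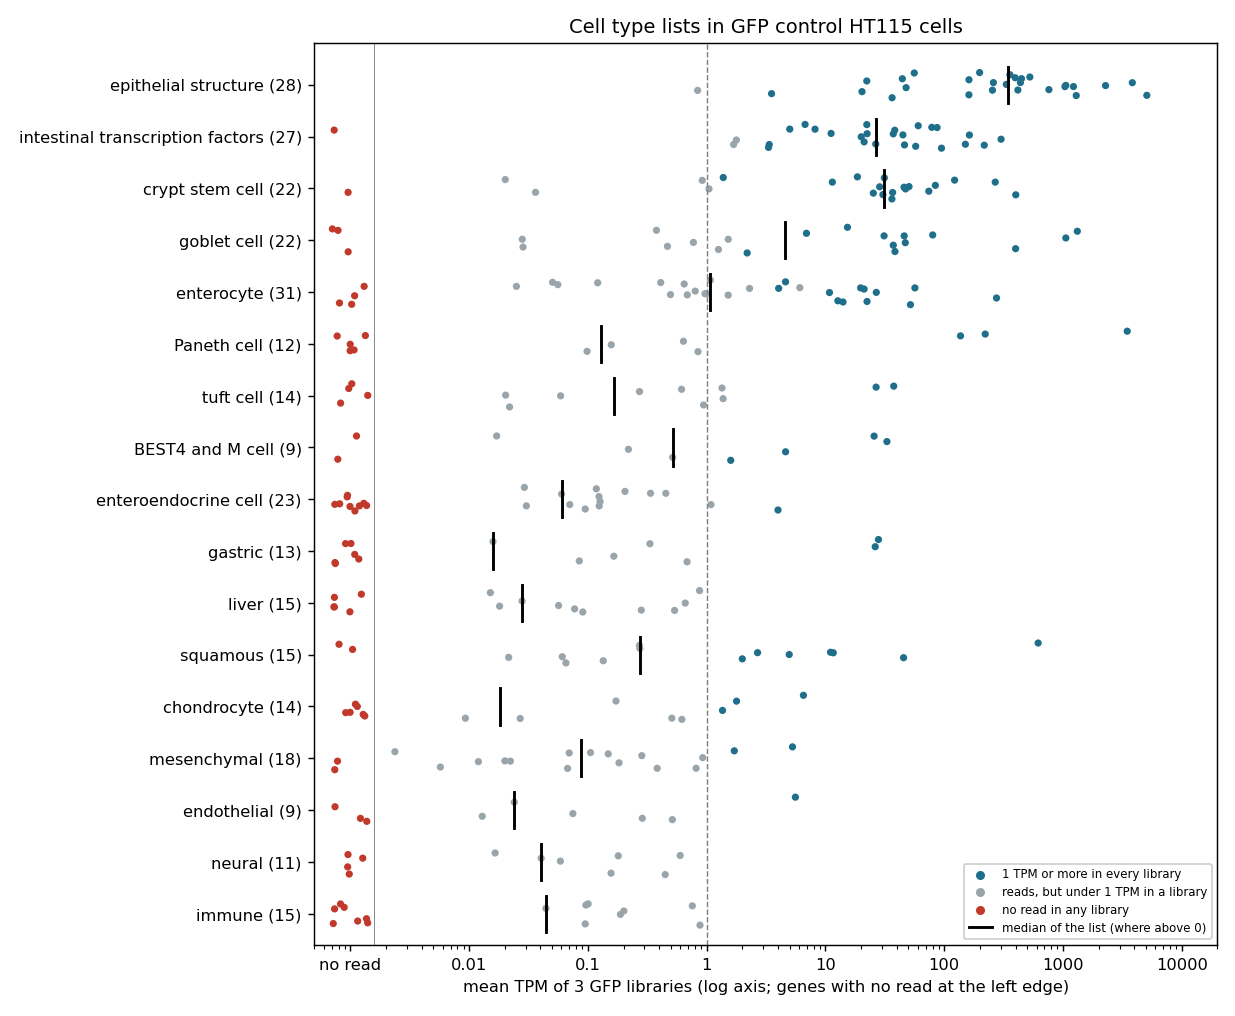
Mean TPM of the 3 GFP libraries (log axis) for each member of 17 cell type lists, with list sizes in brackets; genes with no read are drawn at the left edge and black bars are list medians. The medians of the epithelial, intestinal factor, crypt stem cell, goblet cell and enterocyte lists sit above 1 TPM, while liver, neural and immune lists have no detected member.

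Crypt stem cell genes were largely present. Of 22 members, 17 were detected (18 without replicate 2), with a median of 30.96 TPM, or 39.7 without replicate 2. The highest were the ion cotransporter SLC12A2 (684, 116 and 402 TPM), the adhesion receptor CD44 (279, 182 and 348 TPM) and the WNT target AXIN2 (173, 90.6 and 105 TPM). SLC12A2 was lowest in replicate 2 by a wide margin. ALCAM (84.4 ± 37.6 TPM), an adhesion molecule, and ASCL2 (74.4 ± 12.1), a stem cell transcription factor, followed. CD44 depends on the length used: it came to 1111 TPM with the median basic transcript length. OLFM4, a secreted crypt stem cell marker, had no read in the GFP libraries and none in the other 12. It is the 1 listed stem cell gene absent from all 15 libraries.

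Of 22 goblet cell genes 12 were detected (13 without replicate 2). That is 54.5%, near the 55.3% over all protein-coding genes. The 3 members without a read are secreted goblet products, and 22.8% of all protein-coding genes had no read. The transmembrane mucin MUC13 stood at 1458, 1076 and 1433 TPM and the protein disulfide isomerase AGR2, which folds mucins, at 1172, 1234 and 769.8 TPM. AGR3 (399.9 ± 133 TPM), the secretory-cell factor CREB3L1 (80.1 ± 41.5) and the kallikrein KLK1 (47.1 ± 16.01) came next. The secreted goblet products CLCA1, ITLN1 and ZG16 had no read in any GFP library. MUC2 and TFF3 were looked up after these values were seen. The gel-forming mucin MUC2 came to 46.1 ± 23.2 TPM with the exon union and 802 TPM with the basic transcript length, so its level depends on the length used. The trefoil peptide TFF3 stood at 23.3, 18.6 and 4.15 TPM.

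Enterocyte genes were mostly low: 12 of 31 were detected (38.7%, 13 genes without replicate 2), with a median of 1.08 TPM. PHGR1, a small protein of the gut epithelium, was the highest at 369, 344 and 116 TPM. The peptidase DPP4 stood at 56.8 ± 32.4 TPM, TM4SF20 at 52.1 ± 13.3, the glucose transporter SLC5A1 at 26.9 ± 7.51 and the membrane mucin MUC12 at 22.4 ± 6.08. No read was found for the apolipoprotein genes APOA1, APOA4 and APOB, which serve fat absorption, or for the water channel AQP8. All 4 of these are products of mature absorptive cells.

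Paneth cell genes were detected in 3 of 12 cases, and their level rested on LYZ. The matrix protease MMP7, which processes defensins in mice, stood at 145, 226 and 294 TPM and the secretory stress factor XBP1 at 138, 147 and 128 TPM. The defensins DEFA5 and DEFA6, the defining antimicrobial peptides, had no read, nor had REG3G, ITLN2 and PNLIPRP2. LYZ, MMP7 and XBP1 are all made by other cell types too, and the defining defensins were at 0. Of the other listed members PLA2G2A was the highest at 0, 1.43 and 1.11 TPM.

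Enteroendocrine genes were near absent. The transcription factor ISL1 (5.88, 2.73 and 3.38 TPM) was the 1 member detected of 23, and 9 members had no read. The list summed to 8.05, 5.57 and 6.98 TPM. Tuft cell genes were detected in 2 of 14 cases, the interleukin receptor IL17RB (36.9, 30.97 and 45.1 TPM) and the leukotriene enzyme ALOX5 (42.5, 14.7 and 23.04 TPM), and in 4 without replicate 2, with the actin binder AVIL (1.61, 0.821 and 1.71 TPM) and the ion channel TRPM5 (1.49, 0.721 and 1.84 TPM) added. The tuft cell regulator POU2F3 had 1.59, 0.492 and 0.751 TPM, and DCLK1, IL25, HPGDS and CHAT had no read. Of the 9 genes of BEST4 and M cells, 4 were detected, led by the HES-family factor HES4 (33.01 ± 5.39 TPM) and the chemokine CCL20 (25.7 ± 12.4), with TNFAIP2 (4.63 ± 2.09) and SOX8 (1.599 ± 0.239) next. OTOP2, a proton channel of BEST4 cells, and GP2, an M cell receptor, had no read.

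Of the lists for other lineages, the liver list had no detected member, the gastric list 15.4% and the squamous list 46.7%, near the 46.9% over all list genes. Of 13 gastric genes 2 were detected, the annexin ANXA10 (25.1, 35.5 and 23.4 TPM) and the protease CTSE (33.9, 21.3 and 23.7 TPM). GKN1, GKN2, CLDN18, SOX2, LIPF and VSIG1, which mark gastric cells, had no read. None of 15 liver genes was detected, the highest being AFP (0.874 ± 0.526 TPM), and APOC3, FGA, FGG, CYP3A4 and HAMP had no read. Of 15 squamous genes 7 were detected. Stratifin, SFN, a 14-3-3 protein of epithelia, reached 439.7, 815 and 602 TPM and was highest in replicate 2. The other squamous genes were lower, from the keratin KRT10 (45.6 ± 8.802 TPM), the desmosomal cadherins DSG3 (11.7 ± 7.01) and DSC3 (11.1 ± 5.32) and KRT13 (4.97 ± 1.89) down to KRT1 and IVL without a read.

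Mesenchymal genes were detected in 2 of 18 cases, the EMT factor SNAI1 (4.16, 4.38 and 7.33 TPM) and the smooth muscle actin ACTA2 (2.39, 1.62 and 1.13 TPM), of whose exons 30.8% overlap another gene. Vimentin, VIM, the intermediate filament that defines the class, had 0, 0 and 1 reads in replicates 1, 2 and 3, with 24.3% of its exon bases shared with another gene. PDGFRA and CDH2 had no read. At 0.5 TPM, or 1 CPM, 4 of the 18 were detected, and at 2 TPM, or with effective length, 1. COL1A1, a fibroblast collagen, stood at 0.9198, 0.976 and 0.8901 TPM, and TAGLN at 0.817 ± 0.258 TPM. None of 15 immune genes was detected, and PTPRC, the pan-leukocyte marker CD45, had no read, as had CD3E, MS4A1, CD163, FCGR3A, KLRD1 and TRAC. Of 9 endothelial genes the junction molecule ESAM (5.598 ± 1.496 TPM) was the 1 detected, and CDH5, KDR and EMCN had no read. None of 11 neural genes was detected, and ELAVL4 and STMN2 were among those with no read. The immune list summed to 3.51, 2.17 and 1.42 TPM in replicates 1, 2 and 3, and the neural list to 0.791, 1.802 and 1.92.

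Chondrocyte genes were examined because SOX9 drives the cartilage programme. Of 14 members 3 were detected, SNORC (7.68, 7.01 and 4.94 TPM), a cartilage proteoglycan, and the collagen IX chains COL9A2 (1.79 ± 0.646 TPM) and COL9A3 (1.36 ± 0.235). The cartilage genes ACAN, SOX5, COMP, COL9A1, COL11A1 and HAPLN1 had no read in the GFP libraries. COL9A1 had 40 reads over the other 12 libraries. None of the cartilage genes reached 10 TPM. At a threshold of 2 TPM, or in libraries thinned to the shallowest, 1 of the 14 was detected.

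HOX genes record the position of a tissue along the body axis, and cluster B had the highest summed TPM of the 4 clusters in every library. In that cluster 8 of 10 listed genes were detected and 5 passed 10 TPM, with sums of 648, 457 and 359 TPM in replicates 1, 2 and 3. HOXB9 was the highest of the posterior list at 277, 173 and 134 TPM. The list called anterior holds all listed HOX genes of lower number than HOXB9 and its paralogs, central ones included. HOXB8 was the highest there at 139.8, 98.6 and 77.1 TPM, followed by HOXB7 (76.6 ± 16.5 TPM), HOXB5 (57.4 ± 15.6) and HOXB6 (41.6 ± 12.8). Cluster A had 7 of 11 genes detected (8 without replicate 2), among them HOXA13 (47.4, 17.5 and 19.6 TPM), HOXA9 (15.4 ± 7.01 TPM) and HOXA11 (8.22 ± 1.84). In cluster C, HOXC6 (8.46 ± 5.13 TPM) was the 1 gene of 9 detected. In cluster D it was HOXD13 (9.797, 11.004 and 12.1 TPM), while HOXD1, HOXD9, HOXD10 and HOXD11 had no read. HOXB1 and HOXC5 also had none. Several HOX genes overlap antisense transcripts, and 11 of the 39 listed share over 20% of their exon bases with another gene, HOXB6 with 32.9% among them.

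Receptor tyrosine kinases, the cell-surface receptors of growth factors, were led by those of epithelial cells. Of 58 members 24 were detected and 17 had no read. MET, the receptor for hepatocyte growth factor, stood at 241, 97.1 and 232 TPM, the ephrin receptor EPHA2 at 149, 185 and 215 TPM and the MET relative MST1R at 166, 126 and 182 TPM. MET and MST1R were lowest in replicate 2, and EPHA2 in replicate 1. ERBB3 (224, 75.8 and 92.6 TPM) and ERBB2 (129.6, 88.97 and 81.3 TPM) came next. EGFR, looked up afterwards with the other EGF-family genes below, stood at 33.9, 7.81 and 27.7 TPM, and ERBB4 had no read. ERBB3, which needs a partner kinase to signal, was thus above EGFR in every library.

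**Figure D3:**
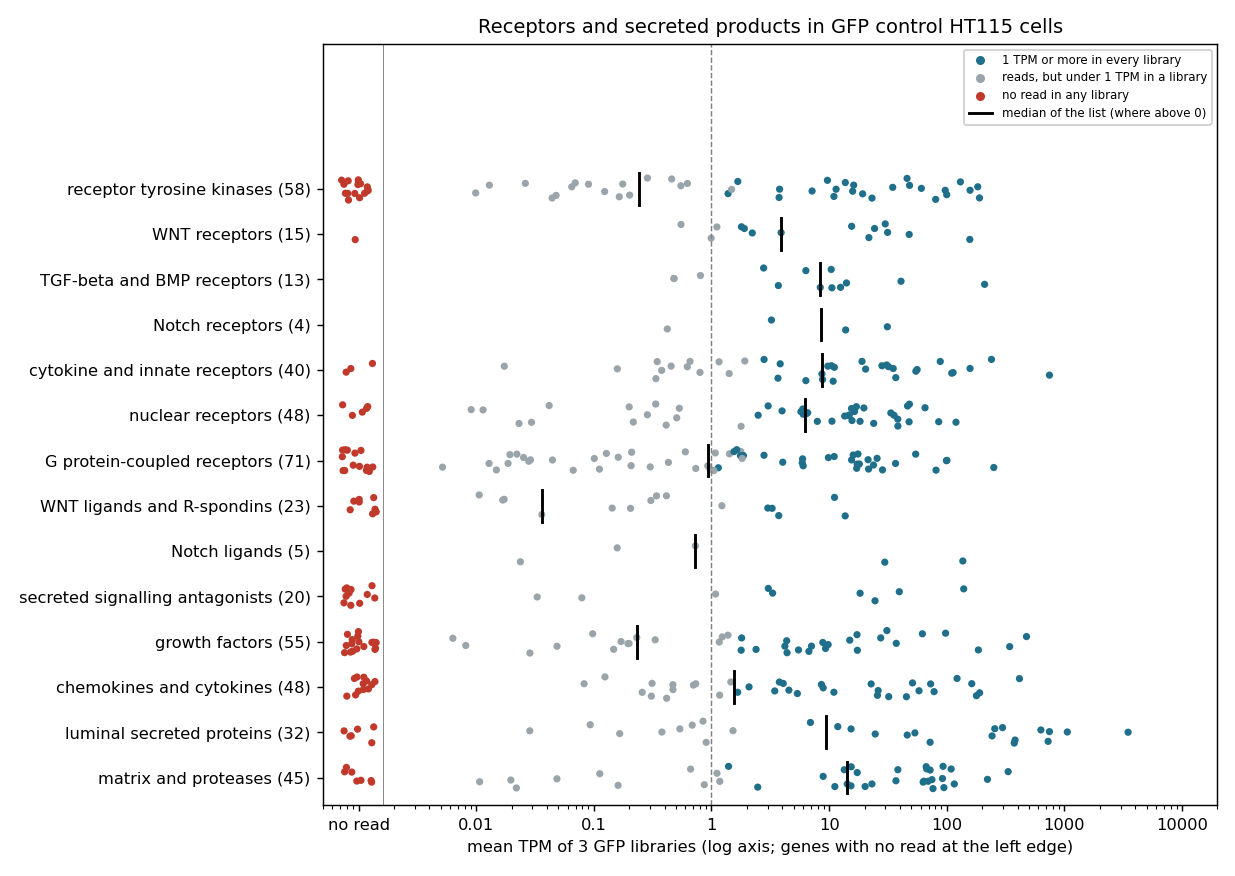
Mean TPM of the 3 GFP libraries (log axis) for each member of 14 lists of receptors and secreted products, with list sizes in brackets; genes with no read are drawn at the left edge and black bars are list medians. Receptors for TGF-beta, BMP, Notch and cytokines lie mostly above 1 TPM, while WNT ligands and R-spondins lie mostly below it.

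EGF-family ligands, named here after their values were seen apart from AREG, were also read. Amphiregulin, AREG, was the highest growth factor at 381, 604 and 443 TPM. EREG stood at 42.3, 13.96 and 55.4 TPM, TGFA at 30.97 ± 8.43 TPM, BTC at 17.4 ± 5.595 and HBEGF at 9.32 ± 1.14. So 5 EGFR ligands were detected beside their receptor. HGF, the MET ligand, had no read in the 15 libraries, while MST1, the ligand of MST1R, was detected at 1.804 ± 0.142 TPM.

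WNT receptors were detected in 11 of 15 cases, or 12 without replicate 2 and 7 with the basic transcript lengths or at a threshold of 2 TPM. LGR4, an R-spondin receptor, was the highest at 254, 43.9 and 173 TPM, and the coreceptor LRP5 followed at 60.7, 32.3 and 50.8 TPM. Next were LGR5, given above, and the frizzled receptors FZD5 (41.9, 19.1 and 28.98 TPM) and FZD7 (41.7, 13.9 and 17.3 TPM). All of these were lower in replicate 2 than in replicate 1. FZD10 had no read in the 15 libraries. WNT ligands and R-spondins were sparse by comparison, with 5 of 23 detected and a median of 0.0362 TPM. WNT7B (10.02, 13.1 and 17.9 TPM) and WNT11 (14.97, 9.55 and 8.81 TPM) were the highest, and WNT10A (3.73 ± 0.605 TPM), WNT3 (3.28 ± 1.57) and WNT10B (3.01 ± 0.436) were the others. WNT1, WNT5A, WNT7A and WNT8A had no read, nor had any of RSPO1, RSPO2, RSPO3 and RSPO4, the ligands of LGR4 and LGR5. The receptors for R-spondins were thus read without a read of any R-spondin.

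Of 20 antagonists of WNT and BMP signals 6 were detected and 11 had no read in any GFP library. FSTL3, which binds activins, stood at 88.6, 179 and 150.1 TPM, and BAMBI, a decoy receptor of the BMP pathway that stays in the membrane, at 34.9, 39.96 and 43.7 TPM. GREM1, a secreted BMP inhibitor, stood at 27.6, 14.8 and 31.3 TPM and the WNT inhibitor DKK1 at 6.93, 19.3 and 28.8 TPM. DKK1 was lowest in replicate 1 and ranged more than GREM1. NOTUM, a WNT-inactivating enzyme, stood at 3.31 ± 0.587 TPM. Among the genes without a read, picked out after the values were seen, were SFRP1, SFRP2, SFRP4, SFRP5 and WIF1, all secreted WNT inhibitors, and the BMP inhibitors NOG and CHRD.

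Receptors for TGF-beta and BMP were detected in 10 of 13 cases. The type II receptor TGFBR2 was the highest at 304, 95.9 and 229.9 TPM, above its type I partner TGFBR1 (18.4, 5.604 and 13.5 TPM) in every library. The activin receptors ACVR1B (40.8 ± 16.2 TPM) and ACVR1 (10.6 ± 3.801) and the coreceptor TGFBR3 (14.04 ± 8.12) were also among the 5 highest. BMP4 was the second growth factor in level, at 318, 317 and 394 TPM. With mitochondrial genes left out of the denominator it averaged 466 TPM. The other growth factors of the highest 5 were GRN (186 ± 56.03 TPM), a lysosomal and secreted protein, the stress cytokine GDF15 (97.7 ± 26.8) and VEGFB (62.05 ± 19.4). Of 55 growth factors 23 were detected (25 without replicate 2) and 18 had no read. The cytokine MIF, named after its values were seen, cannot be read from these counts, since 94.1% of its exon bases lie in another gene as well.

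Hedgehog genes were looked up after these values were seen. The ligands IHH (27.3, 33.1 and 21.9 TPM) and SHH (11.3, 8.86 and 9.26 TPM) were detected, DHH had no read, and the signal transducer SMO had 2, 2 and 8 reads, or 0.302 ± 0.203 TPM. The ligands of this pathway were thus read well above the receptor-side transducer in the same libraries. Among Notch genes, NOTCH1 (38.8, 17.4 and 37.5 TPM) and NOTCH2 (20.8, 4.37 and 16.3 TPM) led the receptors, of which 3 of 4 were detected. JAG1 (186, 78.98 and 146 TPM) and JAG2 (28.9, 29.1 and 31.2 TPM) were the 2 ligands detected of 5. DLL1, a delta-type ligand of secretory progenitors, stood at 0.6198, 0.6904 and 0.879 TPM.

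Cytokine and innate immune receptors were detected in 25 of 40 cases, 27 without replicate 2. PIGR, which carries antibodies across epithelia, was the highest at 1407, 440.3 and 391 TPM, with replicate 1 over 3 times the others. The TNF-family receptors TNFRSF12A (179, 271 and 269.7 TPM), TNFRSF21 (145, 134 and 194 TPM) and LTBR (117, 117 and 105 TPM) and the interferon receptor IFNGR1 (126, 94.2 and 109.8 TPM) followed. LTBR varied little between libraries. LIFR, IL1RL1 and TLR9 had no read. Their ligands were partly present: IL33, the IL1RL1 ligand, stood at 274, 85.9 and 129.8 TPM, and LIF, named after its value was seen, at 45.4 ± 10.4 TPM. IFNAR2 (0.798 ± 0.212 TPM) and IL10RB (0.158 ± 0.107), both named after their values were seen, stood under 1 TPM, and 83.2% and 38.3% of their exon bases overlap other genes, which limits both counts.

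Nuclear receptors were detected in 30 of 48 cases, 31 without replicate 2. The vitamin D receptor VDR was the highest at 129, 98.6 and 131 TPM. It was followed by ESRRA (85.4 ± 10.5 TPM), a regulator of mitochondrial genes, the orphan receptor NR2F6 (65.3 ± 13.2), the thyroid hormone receptor THRA (48.2 ± 15.9) and the lipid sensor PPARG (47.8 ± 5.601). PPARG was even across libraries, at 52.9, 48.9 and 41.8 TPM. RORB, NR2E1, ESRRG, PGR and NR0B1 had no read. G protein-coupled receptors were detected in 29 of 71 cases, 31 without replicate 2, and 14 had no read. GPRC5A, a retinoic acid-induced orphan receptor, was the highest and was even across libraries, at 247, 246 and 259 TPM. The protease-activated receptor F2RL1 (133, 59.9 and 108 TPM), the adhesion receptor ADGRE5 (106, 95.6 and 96.3 TPM), the adenosine receptor ADORA2B (81.05 ± 15.3 TPM) and the neuromedin receptor NMUR2 (54.4 ± 12.8) came next.

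Chemokines and cytokines were detected in 24 of 48 cases (50.0%, near the 46.9% over all list genes), and 12 had no read. PF4, a chemokine known from platelets, was the highest at 462, 442 and 341 TPM (ENSG00000163737, chromosome 4, 73980811 to 73982027, minus strand). PPBP, the other classical platelet chemokine, was looked up after this was seen and stood at 102, 64.9 and 66.9 TPM (ENSG00000163736, chromosome 4, 73986439 to 73988190, minus strand). Both lie in the CXC chemokine cluster of chromosome 4, with CXCL1 (109, 137 and 121 TPM) near them. No other platelet gene was among the lists. PF4 and the CXCL1 family have near-identical copies. Reads mapped to several places were left out, so these counts are uncertain and may be too low. CXCL16 (149, 196 and 226 TPM), a membrane-bound chemokine, IL32 (124, 259.7 and 153 TPM) and IL33 made up the rest of the highest 5.

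Luminal secreted proteins had the highest summed TPM of the secreted lists: 17 of 32 were detected (53.1%) and 10 passed 100 TPM. LYZ and AGR2 led, as given above. REG1A, a regenerating-family lectin (ENSG00000115386, chromosome 2, 79120362 to 79123409, plus strand), stood at 871, 956 and 354 TPM, lowest in replicate 3. S100P, a calcium-binding protein, stood at 633, 856 and 405 TPM, or 126 TPM on average with the basic transcript length. OLFM4, DMBT1, CST1, APOA1, BPIFB1 and LTF had no read. REG1A and REG1B are close copies, and REG1B, looked up for that reason, stood at 1.48, 0.827 and 0.3899 TPM. The iron-binding LCN2, also outside the 5 highest, was even at 427, 395 and 321 TPM.

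Matrix and protease genes were detected in 28 of 45 cases, 29 without replicate 2. The membrane protease ST14, matriptase, was the highest and was even across libraries, at 339, 339 and 319 TPM. MMP7 was the second. TIMP1 (96.6, 161 and 90.5 TPM), a protease inhibitor, AGRN (119, 90.9 and 116 TPM), a basement membrane proteoglycan, and SERPINB5 (112, 74.7 and 97.01 TPM), maspin, followed. MMP2, MMP3, MMP9, MMP12, HPN and SPP1 were among the members with no read. The laminin genes LAMB3 (91.7, 90.1 and 93.97 TPM) and LAMA3 (15.3 ± 6.96 TPM), which encode basement membrane chains, were chosen after their values were seen and were both detected.

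All 10 mismatch repair and proofreading genes were detected, from MLH3 (9.63 ± 3.395 TPM, named after its value was seen as the lowest) to the polymerase gene POLD1 (75.6, 63.8 and 58.1 TPM). The proofreading polymerase gene POLE stood at 56.96, 28.7 and 46.1 TPM, the exonuclease EXO1 at 40.4 ± 12.2 TPM and the mismatch-binding MSH6 at 37.9 ± 11.7. Read counts say nothing of mutations in these genes. Antigen presentation genes were detected in 15 of 20 cases. The class I heavy chain genes HLA-C (366, 365 and 247 TPM) and HLA-B (357, 362 and 253 TPM) were among the 5 highest, as were HLA-E (117 ± 20.6 TPM) and the peptide-loading factor TAPBP (88.99 ± 7.35). With the basic transcript lengths HLA-B averaged 808 TPM. HLA genes share long identical stretches, and reads mapped to several places were left out, so their counts are uncertain and may be too low. HLA-DQA1 had no read. B2M, the light chain of class I molecules, was looked up after that and stood at 41.3, 32.2 and 33.4 TPM, below HLA-C and HLA-B in every library. Its exon union is 6079 bases, and the basic transcript length gave 116 TPM.

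Genes without a read made up 32205 of the 60671, and 23332 of them had none in the other 12 libraries either. Among protein-coding genes 4541 had no read (22.8%), and 2809 of these (61.9%) had none in all 15 libraries. The depth left room for more: 3522, 3782 and 4085 genes had exactly 1 read in replicates 1, 2 and 3. Of the 169 list genes without a read, 66 had none in all 15 libraries, OLFM4, HGF, RSPO1, RSPO3, DEFA5, DEFA6, CLCA1 and FZD10 among them. No read is thus a statement about this depth and not about absence.

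Protein-coding genes that were detected had more CG dinucleotides before their start than those that had no read. A RefSeq promoter window (GRCh38.p14, the 250 bases before the start) was matched by symbol for 11308 of 19903 protein-coding genes. Genes whose symbol had no single window, SOX9, LGR5, LYZ and PF4 among them, were left out. The median was 22 CG dinucleotides for 6395 detected genes, 12 for 2337 genes with reads that were not detected and 4 for 2576 genes without a read. At least 10 were held by 90.1%, 56.0% and 31.7% of these classes. TATAAA, searched on both strands and sharing no base with a CG, was in 5.35% of the windows of detected genes, 11.9% of those with reads that were not detected and 20.4% of those without a read, against 10.1% of all matched windows. PPBP, with 1 CG and TATAAA, was detected, and WIF1, with 27 CG, had no read. Of the 5 windows printed above, KRT20, PPBP and WIF1 lay on the other side of 10 CG dinucleotides from the bulk of their class. A match is a description of the letters and not a binding site.

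**Figure D4:**
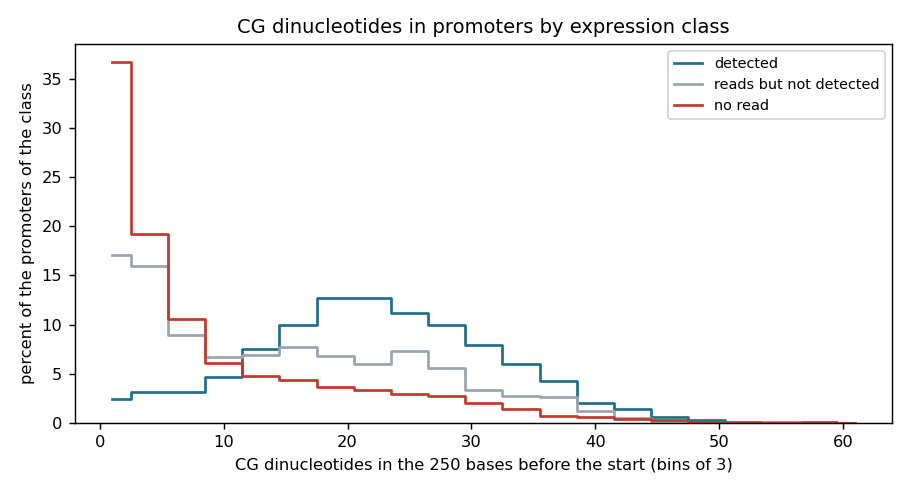
Percent of promoter windows of each class (vertical axis) against the number of CG dinucleotides in the 250 bases before the start, in bins of 3. Detected genes peak near their median of 22, and genes without a read pile up at the low end, with a median of 4.

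The agreement of the 3 libraries was unequal. Over 13309 genes kept by edgeR's expression filter, Pearson's r of log2(CPM + 1) was 0.982 between replicates 1 and 3, 0.931 between 1 and 2 and 0.945 between 2 and 3, across genes, which are not independent replicates. More than 1 log2 unit lay between replicates 1 and 3 in 2.28% of these genes, between 1 and 2 in 18.6% and between 2 and 3 in 13.6%. The median SD per gene was 0.340 on the log2 scale, and 0.151 without replicate 2. Thinned to 3054755 reads per library, the median SD over 11513 genes was 0.384 in GFP, against 0.192 in M228, 0.179 in M303, 0.176 in M379 and 0.154 in SOX9_WT. The common dispersion, which measures spread beyond counting noise, was 0.0975 in GFP at full depth, and 0.0233 without replicate 2. In the other 4 groups it was 0.00832 to 0.0226 at full depth. The value without replicate 2 rests on replicates 1 and 3 alone, at unequal depth, so it is not like for like with those groups. In thinned libraries the common dispersion was 0.0920 in GFP, with all its replicates, and 0.00732 to 0.0154 in the other 4 groups. None of these differences was tested.

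Gene length moved with the deviation of replicate 2. The filtered protein-coding genes were cut into 4 equal sets by length. In the shortest set (396 to 3412 exon bases) its median deviation from the mean of the 3 libraries was 0.33 on the log2 scale, and in the longest set (7801 to 118976 bases) it was -0.40. The longest set minus the shortest gave -0.72 for replicate 2, 0.40 for replicate 1 and 0.32 for replicate 3. All 3 are deviations from the mean of the same libraries, so the values of replicates 1 and 3 are not independent of that of replicate 2. The other 12 libraries gave -0.12 to 0.13 against their own group means. The share of ribosomal protein reads, highest in replicate 2, moved with it, and its part was not tested.

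**Figure D5:**
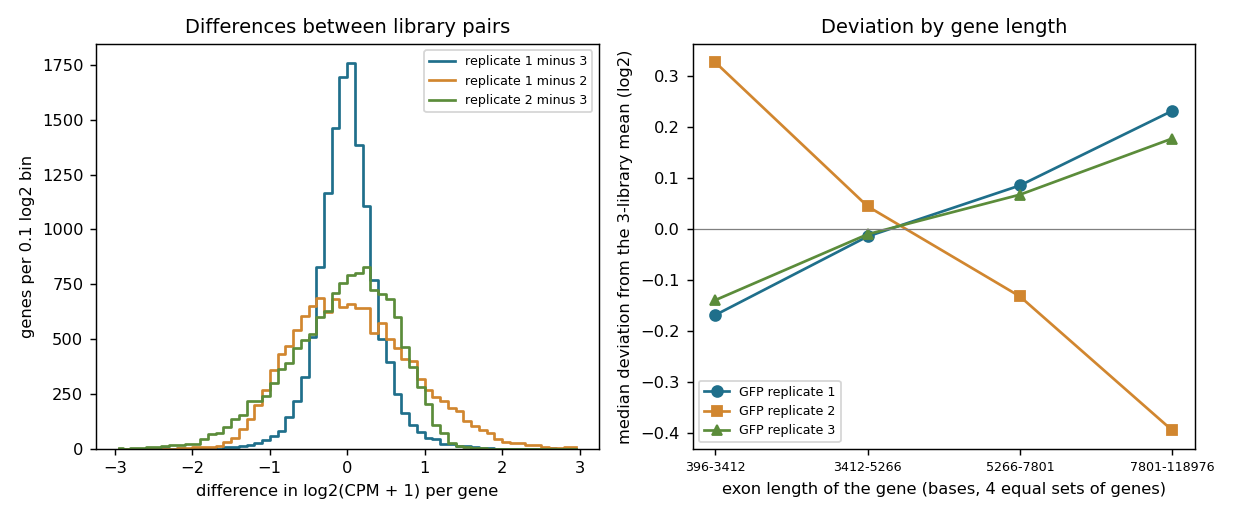
Left, genes per bin of 0.1 log2 against the difference in log2(CPM + 1) between GFP libraries; right, median log2 deviation of each GFP library from the mean of the 3, in 4 sets by exon length. Replicates 1 and 3 differ by over 1 log2 unit in 2.28% of genes, and replicate 2 runs from 0.33 in the shortest set to -0.40 in the longest.

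A chi-square test of the 3 counts of each gene against the scaled library sizes, with Benjamini-Hochberg adjustment, asked which genes varied beyond counting noise. It compares these libraries and no conditions. Of 12799 genes with at least 5 expected reads, 9759 were called at an adjusted p under 0.05, which is 76.2%. Of the list genes, 401 were tested and 315 called, a share near that background of 76.2%. Without replicate 2, 3057 of 12708 genes were called. The range over the 3 libraries passed 1 log2 unit in 3025 called genes, and replicate 2 was the lowest in 1867 of them and the highest in 995. Over all 9759 called genes it was the lowest in 4576 and the highest in 4299. Among the 382 detected list genes, the highest TPM was under 2 times the lowest in 225, from 2 to 4 times in 126 and 4 times or more in 31. Replicate 2 was the lowest in 27 of those 31. Between replicates 1 and 3 alone, 334 of the 382 lay within 2 times of each other and 6 lay 4 times or more apart. These list counts are in TPM, which depends on the mitochondrial share, and no share over all detected genes stands beside them. In scaled log2(CPM + 1), the range passed 1 log2 unit in 23.8% of the 12799 tested genes and 2 log2 units in 189 genes.

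The widest ranges were in genes that replicate 2 read low, with exons of 5439 to 16401 bases in all. MGAM2, a maltase-glucoamylase relative, stood at 29.001, 1.08 and 19.5 TPM, the osmotic stress factor NFAT5 at 22.7, 1.85 and 20.8 TPM and RICTOR, a subunit of the mTORC2 kinase complex, at 26.8, 1.899 and 16.001 TPM. NCR3LG1, a ligand of the natural killer cell receptor NKp30, stood at 39.8, 2.83 and 32.2 TPM and the lipid kinase PIK3C2A at 47.7, 4.25 and 41.9 TPM. ZNF770 and ZNF292, both zinc finger genes, PRUNE2, DENND4C and ARHGAP5, a regulator of small GTPases, completed the 10. All 10 were lowest in replicate 2, at 1.08 to 8.47 TPM there, against 18.4 to 97.4 TPM in replicate 1 and 4.34 to 50.3 TPM in replicate 3.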

How the data were processed

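RNA sequencing of 15 HT115 libraries with 150 bp paired reads gave the data, and the 3 GFP libraries are described. The aligner was STAR 2.7.0a and the genome hg38, per the submitters' processing notes. Deposited were unnormalized counts of reads per gene and the exon length of each gene in bases. They come from featureCounts 2.0.1 and Ensembl 101 (GRCh38), per the file headers. No strand or pair option appears in that command, so both strands were counted together, mates were counted singly, and reads shared by genes or mapped to several places were left out. No trimming step is given in the sources used here. A deposited normalized table was not used, and 3 of its columns match no sample label.

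Symbols came from Ensembl identifiers (42020 of 60671 genes) and gene types from GENCODE 29 (58453 genes). TPM was computed from counts and exon length. CPM was scaled by TMM over the GFP libraries (edgeR 4.0.16, R 4.3.3). Genes with at least 5 expected reads per library entered a chi-square test against scaled library sizes (scipy 1.17.1), adjusted by the Benjamini-Hochberg method. On simulated data for the 3 GFP libraries over 12780 genes, it called 98 of 100 genes changed by 1 log2 unit, 100 of 100 changed by 2, and 6 unchanged genes. The simulation drew independent counts and changed genes in replicate 2 only. It left out the counting of both mates, so it cannot give the rate of false calls in the real counts. Thinning drew reads down to 3054755 per library. Depth sets the precision: 3 reads equal 0.0926 CPM over the 3 libraries pooled.

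The genes described and all lists were chosen with earlier results of these data known. Named are the 4 markers, the 20 highest nuclear protein-coding genes, the 5 highest members of each list, members without a read where a list has at most 8, and the 10 called genes of widest range with at least 10 CPM. Other names are said to be chosen after their values were seen. Some genes that the rule names are not reported here. An overlap of over 20% of exon bases with another gene is stated. Alternatives tried were the detection threshold, gene length, mitochondrial genes left out of the denominator, scaling by DESeq2 1.42.0 size factors, filters, thinning and leaving out each replicate.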

Additional observations from a re-analysis of the deposited data

How the results depend on the processing

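The count of detected genes was 13672, and 11877 to 16301 under the other thresholds, lengths, denominators and depths, with 14067 to 14602 on leaving out each replicate. Detected list genes numbered 382, and 339 to 423 under the same alternatives, with 387 to 398 on leaving out each replicate. Genes without a read numbered 32205, and 32747 to 35503 on leaving out each replicate. They numbered 37180 in thinned libraries, and 38334 genes had under 3 reads summed over the libraries. The agreement of the GFP libraries depended most on replicate 2. The median SD per gene was 0.340 and ran from 0.151 to 0.373 on leaving out each replicate. It was 0.219 with no filter on low counts. Calls of the chi-square test numbered 9759, and ran from 3057 to 9303 on leaving out each replicate. They were 7473 in thinned libraries and 8004 of 11579 tested genes with all counts divided by 2, an alternative chosen after seeing the data for the case that both mates were counted. The common dispersion ran from 0.0233 to 0.143 on leaving out each replicate. The values without replicate 2 are 0.151, 3057 and 0.0233. The cause was not tested.

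Of 287 named genes, the mean level moved by more than the SD between libraries in 90 with GENCODE 29 median basic transcript lengths. It moved that far in 100 with mitochondrial genes left out of the denominator. Both alternatives were chosen after seeing the data. With effective length it moved that far in 19. Leaving out a replicate gave 0 and could give no other value, because a mean without 1 library always lies within that SD. Of the 382 detected list genes, the basic length gave a mean over 1.5 times higher in 53 and over 1.5 times lower in 116. Counts of detected members moved by over 1.5 times under some alternative in 8 lists: chondrocyte (3, or 1 at 2 TPM or in thinned libraries), mesenchymal (2, or 1 to 4), tuft cell (2, or 4 to 5), WNT receptors (11, or 7), enteroendocrine cell and endothelial (each 1, or 2), and liver and neural (each 0, or 1). Depth limits what is unread: the floor of 3 reads was 0.982 CPM in replicate 1. No paired analysis was possible because the levels come from 1 group, in which a replicate number cannot be a block.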
